A study of Mus musculus with 30 samples.

Results

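Genes of DNA replication and mitosis were followed through mouse lung organoid cultures in which the epithelial cells can divide and the fibroblasts had been growth-arrested. The 41 genes were chosen by function from a written list, with no measured value in the rule, but with earlier results of these data known. They comprised 25 genes of mitosis, 13 genes of DNA replication and 3 genes of entry into S phase (G1/S entry), out of 55487 genes with counts, and every one passed the filter on low counts in each fit. Epcam+ epithelial cells of wild-type C57BL/6J mice, both sexes and over 8 weeks of age, were seeded at 300000 cells in equal number with CCL206 fibroblasts, an established mouse lung fibroblast line that had been treated with mitomycin C. The cultures of 4 mice were exposed for 72 hours to vehicle control, to the exacerbation cocktail (EC, with TNF-α, IL-6, IL-1β and a chemokine that the labels give as IL-8 and the methods as KC for mouse cells), to the pulmonary fibrosis cocktail (IPFc, with the interleukins IL-33, IL-13, IL-8, IL-4 and IL-1β together with TSLP, TNF-α, TGF-β and CCL2) or to TGF-β at 2 ng/ml. They were then separated with Epcam beads into Epcam+ (epithelial) and Epcam- (CCL206 fibroblast) fractions, and each fraction was sequenced as bulk RNA. These 8 groups held 4 libraries each, except fibroblast vehicle (mice 1, 3 and 4) and epithelial TGF-β (mice 2, 3 and 4), for a total of 30.

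A dividing cell copies its DNA in S phase and separates the copies in mitosis. Before S phase, Cdc6 and Cdt1 load the Mcm2 to Mcm7 helicase onto replication origins, Pcna then clamps the polymerases to DNA, and Rrm1, Rrm2, Tyms and Tk1 supply the nucleotides. The kinase Cdk1 with cyclins A2, B1 and B2 drives entry into mitosis, the Aurora and Polo-like kinases build the spindle, the Bub1, Bub1b and Ttk checkpoint watches the attachment of chromosomes, and Cdc20 and Ube2c with the anaphase-promoting complex end mitosis. Most of these RNAs are made only in cycling cells. The replication genes are largely under E2F factors, and the mitotic genes largely under the DREAM and B-Myb complexes. Mitomycin C crosslinks DNA and stops division, and is used on feeder fibroblasts for this purpose. In bulk RNA, fewer cycling cells and less RNA per cycling cell cannot be told apart.

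Levels are given as CPM (read counts scaled to the size of the library, with TMM normalisation), in the order of the mice. A library held 5113828 (fibroblast EC, mouse 1) to 20317181 counted reads, and all others at least 8275413. The fractions were not pure, and the RNA of the other fraction was estimated in each library from marker genes, as the median CPM of the markers relative to the partner library of the same culture. These percentages, and the levels after subtraction given further on, used CPM scaled to library totals without TMM. Epithelial markers in fibroblast libraries stood at 17.6 to 30.8% of the partner under vehicle, 36.9 to 58.2% under EC, 12.6 to 31.6% under IPFc and 0.974 to 3.52% under TGF-β. Fibroblast markers in epithelial libraries stood at 4.01 to 9.36%, 5.37 to 15.4%, 4.91 to 16.0% and 25.9 to 31.0%, in the same order of treatments. All 34 epithelial markers had reads in every group, including Epcam (fibroblast vehicle 33.4 ± 10.5, SD, n = 3, epithelial vehicle 222 ± 7.66, n = 4) and the surfactant gene Sftpc (2874 ± 414 and 4174 ± 689). Single markers did not give a common percentage. In fibroblast EC libraries Epcam was at 37.3, 29.7, 27.4 and 37.2% of the partner and Sftpc at 183, 114, 135 and 73.7%, and in fibroblast vehicle libraries Epcam was at 14.3, 12.8 and 20.8% and Sftpc at 78.7, 51.9 and 91.1%. The median is therefore a rough estimate. At least 29 of 30 fibroblast markers had reads, and Thy1, a surface marker of fibroblasts, was at 0 in fibroblast vehicle, EC and TGF-β libraries. Immune markers summed to 19.4 to 160.3 CPM and endothelial markers to 3.75 to 32.8 CPM over all libraries, with Nkg7 at 0 in every group and Cldn5 at 0 in all but epithelial TGF-β.

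The first question was how the RNA of the cell cycle is divided between the fractions. Under vehicle, 40 of 41 genes were higher in the epithelial than in the fibroblast libraries of the same cultures, with a median log2 difference of 1.23 against 0.02 over all genes. The remaining gene, E2f1, which encodes a transcription factor of S phase genes, had the opposite sign. Across all genes tested, 23.5% were called higher in epithelial libraries under vehicle (edgeR's quasi-likelihood test, Benjamini-Hochberg adjusted p, here padj, under 0.05). Cell cycle RNA was nevertheless plentiful in the arrested fraction, where all 41 genes had reads in every library.

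Mki67, the proliferation antigen that coats mitotic chromosomes, was at 706, 709, 736 and 748 CPM in epithelial vehicle libraries and at 163, 191 and 234 CPM in fibroblast vehicle libraries (log2 fold change 1.91 ± 0.28, padj = 2.19e-05 by edgeR). Top2a, the topoisomerase that untangles chromosomes, was at 571, 592, 549.5 and 658 against 318, 379 and 309 CPM (log2 fold change 0.82 ± 0.17, padj = 0.000827). The values of the fractions did not overlap for either gene, but the gap of Top2a was the smaller. Kif23, a motor of the midbody at cell division, had the lowest padj of the comparison (226, 248, 238 and 272 against 56.3, 64.5 and 68.5 CPM, log2 fold change 1.96 ± 0.14, padj = 4.80e-08). Plk1, the Polo-like kinase, was at 149, 155, 157 and 139 against 35.8, 28.8 and 41.1 CPM (log2 fold change 2.09 ± 0.19, padj = 1.50e-07). Mitotic genes thus lay between 0.74 and 2.28 on the log2 scale above the fibroblast fraction, all 25 in the same direction.

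The replication genes ranged more narrowly, from 0.78 to 1.58, again with all 13 higher in epithelial libraries. Mcm5, a subunit of the replicative helicase, was at 394, 413, 419.6 and 399 CPM in epithelial and 136, 116 and 156 CPM in fibroblast vehicle libraries. Its partner Mcm2 was at 237, 232, 243 and 214 against 94.0, 108 and 115 CPM, and Pcna, the sliding clamp, at 366, 380.2, 317 and 413 against 194, 157 and 175 CPM. For each of these subunits the lowest epithelial value was above the highest fibroblast value. Rrm2, the regulated subunit of ribonucleotide reductase, was at 237, 246, 248 and 296 against 89.1, 95.8 and 98.3 CPM, and the licensing factor Cdt1 at 107, 117, 125 and 105 against 41.4, 41.8 and 60.8 CPM.

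Among the G1/S genes, the cyclins E were higher in epithelial libraries, with Ccne1 at 28.9, 29.7, 30.2 and 33.8 against 12.9, 11.1 and 13.8 CPM (log2 fold change 1.30 ± 0.17, padj = 6.19e-06) and Ccne2 at 18.1, 18.2, 18.5 and 30.9 against 13.7, 12.4 and 11.5 CPM (log2 fold change 0.80 ± 0.27, padj = 0.0222). E2f1 was at 49.4, 50.6, 54.2 and 46.6 CPM in epithelial and 64.4, 65.04 and 87.1 CPM in fibroblast vehicle libraries (log2 fold change -0.52 ± 0.22, padj = 0.0615). Its fibroblast values all lay above the epithelial ones, and E2f1 was the only member lower in the epithelial fraction by the test under EC (log2 -0.54 ± 0.19, padj = 0.028), IPFc (log2 -0.70 ± 0.19, padj = 0.00495) and TGF-β (log2 -0.91 ± 0.22, padj = 0.00325). Under each of these treatments 39 members were higher in the epithelial fraction, beside 20.3% of all genes under EC, 26.3% under IPFc and 21.7% under TGF-β. The member without a call was Ccne2 under EC and IPFc and Cdt1 under TGF-β. With the estimated RNA of the other fraction subtracted, 19 members remained called under vehicle, 35 under EC, 21 under IPFc and 7 under TGF-β. All were shared with the calls from the counts as deposited. The share of all genes called after subtraction is not given here. The summed mitosis genes stayed apart after subtraction, without TMM and with levels below 0 kept. They were at 4303 to 4753 CPM in epithelial and 529 to 1411 CPM in fibroblast vehicle libraries. Under TGF-β they were at 4106 to 4618 and 1162 to 1690 CPM.

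**Figure D1:**
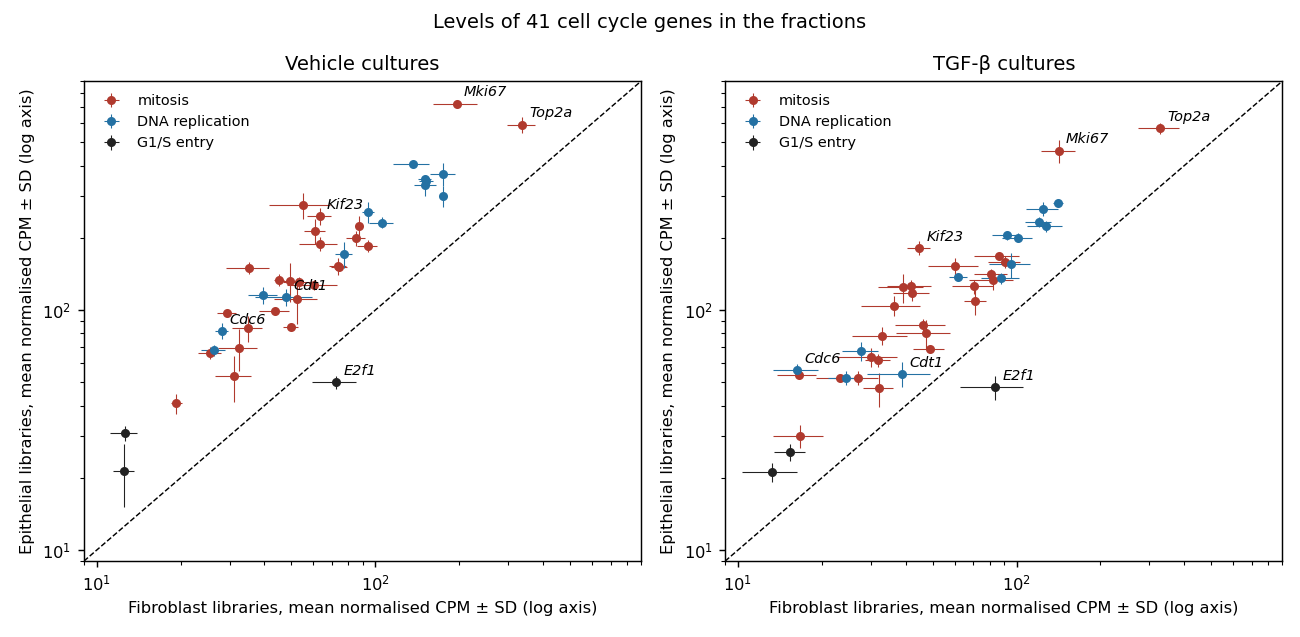
Mean level of each of the 41 genes in fibroblast (x axis) and epithelial (y axis) libraries under vehicle (left) and TGF-β (right), in normalised CPM on log axes, with bars for the SD over 3 or 4 libraries and a dashed line at equal levels. E2f1 alone lies below the line in both panels, and Cdt1 moves toward it under TGF-β.

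The summed level of the 25 mitosis genes was 4391, 4518, 4383 and 4844 CPM in epithelial vehicle libraries and 1706, 1788 and 1752 CPM in fibroblast vehicle libraries. That of the 13 replication genes was 3023, 3119, 3109 and 3315 against 1366, 1303 and 1408 CPM. The sums of the 3 G1/S genes overlapped between the fractions, at 96.4, 98.5, 103 and 111 against 91.0, 88.5 and 112 CPM.

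**Figure D2:**
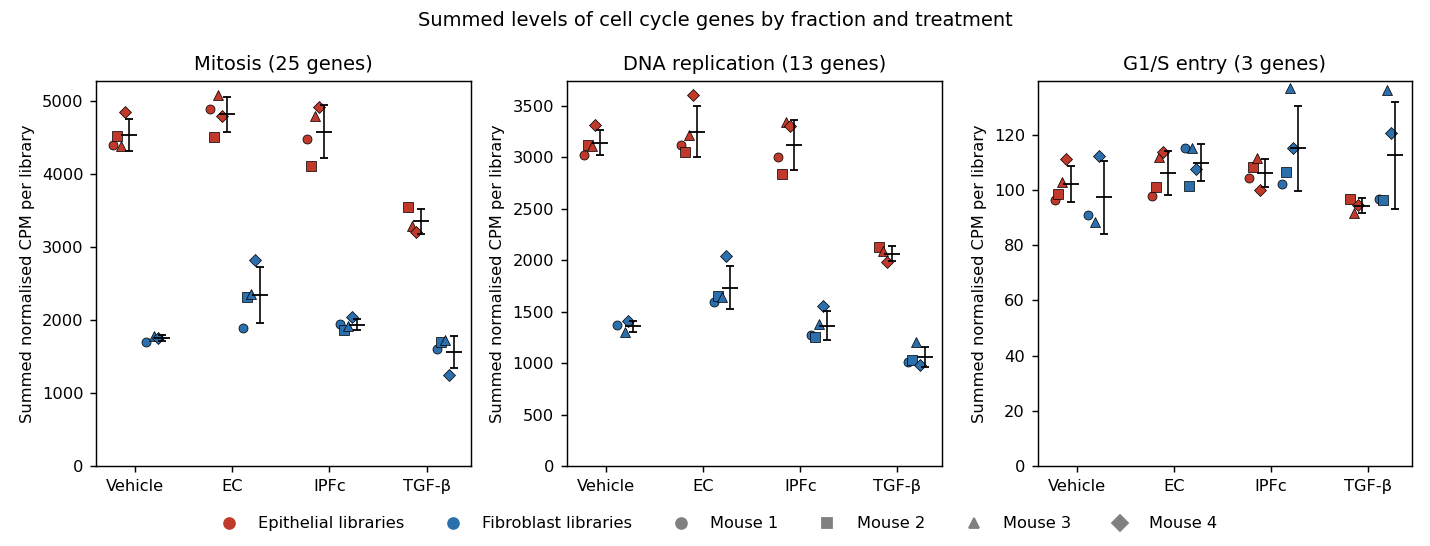
Summed normalised CPM of the mitosis, DNA replication and G1/S entry genes in each library (points, shaped by mouse and coloured by fraction), with the mean and SD of each group as bars and treatments on the x axis. Epithelial TGF-β libraries lie between 3213 and 3547 CPM for mitosis and between 1981 and 2126 CPM for replication, below all other epithelial libraries. The mitosis and replication means of the fibroblast groups are highest under EC, where mouse 4 reaches the range of epithelial TGF-β for replication, and the G1/S sums of the fractions overlap.

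The next comparisons asked which exposure changed cell cycle RNA in the epithelial fraction, and all 3 share the vehicle libraries. TGF-β lowered 28 of the 41 genes and raised none, with a median log2 fold change of -0.38 against 0.03 over all genes. All 13 replication genes fell, as did 15 of 25 mitosis genes, and none of the 3 G1/S genes was called. Over all genes tested, 20.1% fell in this comparison. In 33 members every TGF-β library lay below every vehicle library, which held for 23.4% of all genes. In all 3 mice with both cultures 35 members were lower under TGF-β, but the share of all genes that did so is not given. The median difference of the members from vehicle was -0.36 in mouse 2, -0.37 in mouse 3 and -0.65 in mouse 4. Fibroblast markers moved with this comparison, from 4.01 to 9.36% of the partner under vehicle to 25.9 to 31.0% under TGF-β.

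The largest fall among the mitosis genes was that of Cdc20, the activator of the anaphase-promoting complex, from 283, 301, 284 and 224 CPM under vehicle to 144, 119 and 109.8 CPM under TGF-β (log2 fold change -1.06 ± 0.09, padj = 6.62e-09 by edgeR). Plk1 fell to 82.3, 81.9 and 70.5 CPM (log2 fold change -0.88 ± 0.09, padj = 1.46e-07). Neither gene had a TGF-β library within the range of vehicle. Aurka, the Aurora kinase of the spindle poles, was at 102, 96.3, 95.3 and 97.1 CPM under vehicle and 55.6, 52.2 and 48.7 CPM under TGF-β (log2 fold change -0.83 ± 0.10, padj = 1.36e-06), and Aurkb, the Aurora kinase of the centromere, at 90.6, 92.0, 83.6 and 69.9 and 56.1, 43.0 and 42.4 CPM (log2 fold change -0.74 ± 0.10, padj = 4.07e-06). The mitotic cyclin Ccnb1 was at 205, 219, 216 and 258 CPM under vehicle and 141, 149 and 135 CPM under TGF-β (log2 fold change -0.64 ± 0.10, padj = 3.55e-05). Its kinase Cdk1 fell by less, from 145, 152, 143 and 169 to 118, 118 and 93.6 CPM (log2 fold change -0.45 ± 0.12, padj = 0.0034). Mki67 was at 512, 411 and 463 CPM under TGF-β (log2 fold change -0.60 ± 0.14, padj = 0.00128), below all 4 vehicle libraries. The other mitosis genes that fell were Ccna2, Birc5, Ube2c, Kif23, Ttk, Hmmr, Kif11 and Cenpa, with log2 fold changes between -0.76 and -0.27.

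Mitosis genes did not move as a block. Top2a was at 603, 563 and 549.6 CPM under TGF-β, inside the range of vehicle (log2 fold change -0.01 ± 0.10, padj = 0.969). Nusap1, a spindle protein (0.00), and Cenpe, a kinetochore motor (0.03), were also near 0 on the log2 scale. Bub1, Bub1b, Kif20a, Tpx2, Prc1, Cenpf and Ccnb2 had values between -0.31 and -0.12 and were not called. The ratio of the summed mitosis to the summed replication genes was 1.58 to 1.67 in epithelial TGF-β libraries and 1.41 to 1.46 in epithelial vehicle libraries. It was 1.33 to 1.58 in epithelial EC libraries, which overlapped with TGF-β, and 1.43 to 1.49 in epithelial IPFc libraries.

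Among the replication genes, Cdt1 fell most, to 59.0, 56.8 and 46.8 CPM (log2 fold change -1.04 ± 0.09, padj = 1.48e-08 by edgeR), followed by Mcm5 at 212, 196 and 206 CPM (log2 fold change -0.95 ± 0.09, padj = 2.26e-08) and Rrm2 at 138, 142 and 128 CPM (log2 fold change -0.90 ± 0.10, padj = 4.29e-07). Every TGF-β library was below every vehicle library for these genes. The helicase subunits did not fall equally, with Mcm3 at -0.75, Mcm7 at -0.63, Mcm2 at -0.52, Mcm6 at -0.35 and Mcm4 at -0.30 on the log2 scale. Mcm2 was at 173, 156 and 136 CPM under TGF-β. Pcna was at 289, 269.9 and 281 CPM (log2 fold change -0.38 ± 0.12, padj = 0.0138), and this call was lost without a replicate block (padj = 0.0521) and with library totals in place of TMM (padj = 0.0526). Tk1, Cdc6, Tyms and Rrm1 fell by 0.72, 0.52, 0.34 and 0.30 on the log2 scale. None of the G1/S genes was called. Ccne1 was below all vehicle libraries at 25.5, 27.6 and 23.4 CPM (log2 -0.25 ± 0.13, padj = 0.139), while the groups overlapped for Ccne2 at 18.8, 22.0 and 22.5 CPM (log2 -0.02 ± 0.17, padj = 0.932) and E2f1 at 52.5, 41.9 and 48.7 CPM (log2 -0.03 ± 0.13, padj = 0.9).

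With the estimated fibroblast share subtracted from each library, 15 of the 28 genes were still lower under TGF-β and the median log2 fold change was -0.17. They were Ccnb1, Ccna2, Aurka, Aurkb, Plk1, Cdc20, Birc5 and Ube2c of the mitosis genes and Mcm2, Mcm3, Mcm5, Mcm7, Rrm2, Tk1 and Cdt1 of the replication genes. The changes that remained were -0.98 ± 0.10 for Cdt1 (padj = 1.19e-05), -0.80 ± 0.09 for Cdc20 (padj = 1.61e-05) and -0.72 ± 0.08 for Mcm5 (padj = 2.46e-05), by edgeR. Mki67 (-0.31, padj = 0.177), Cdk1 (-0.31, padj = 0.067) and Pcna (-0.17, padj = 0.359) were no longer called. The subtraction takes fibroblast markers in epithelial libraries as RNA of fibroblasts, and whether TGF-β changed these markers within epithelial cells was not tested. On the scale without TMM, the summed replication genes after subtraction were 2564 to 2761 CPM under TGF-β and 3050 to 3241 CPM under vehicle, and the summed mitosis genes overlapped at 4106 to 4618 and 4303 to 4753 CPM.

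The start regions of the genes that fell most are shown because replication and mitosis genes differ in the control letters of their promoters. RefSeq windows of 250 bases before to 50 bases after the start site (GRCm38.p6) were found for 35 members. They were searched on both strands for E2F letters (TTTCCCGC, TTTGGCGC, TTTCGCGC or TTTGCCGC), for the cell cycle homology region, CHR (TTTGAA or TTCGAA), and for the CCAAT box (CCAAT). Cdc20 (chr4:118437294-118437593, minus strand) and Plk1 (chr7:122159185-122159484, plus strand) stand for mitosis, and Mcm5 (chr8:75109259-75109558, plus strand) and Cdt1 (chr8:122567765-122568064, plus strand) for replication, each 5′ to 3′ with the letters found in capitals:
Cdc20: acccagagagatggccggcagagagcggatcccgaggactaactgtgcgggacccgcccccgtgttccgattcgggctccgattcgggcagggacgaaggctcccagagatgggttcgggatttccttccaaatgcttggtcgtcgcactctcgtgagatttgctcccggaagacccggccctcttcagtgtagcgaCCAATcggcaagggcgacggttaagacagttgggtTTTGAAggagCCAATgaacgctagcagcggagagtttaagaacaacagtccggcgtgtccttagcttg
Plk1: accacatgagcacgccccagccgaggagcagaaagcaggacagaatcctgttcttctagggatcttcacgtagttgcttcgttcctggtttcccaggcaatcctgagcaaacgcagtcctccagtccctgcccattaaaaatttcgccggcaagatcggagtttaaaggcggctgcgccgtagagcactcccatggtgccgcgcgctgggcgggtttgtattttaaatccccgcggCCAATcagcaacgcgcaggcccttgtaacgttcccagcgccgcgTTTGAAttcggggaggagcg
Mcm5: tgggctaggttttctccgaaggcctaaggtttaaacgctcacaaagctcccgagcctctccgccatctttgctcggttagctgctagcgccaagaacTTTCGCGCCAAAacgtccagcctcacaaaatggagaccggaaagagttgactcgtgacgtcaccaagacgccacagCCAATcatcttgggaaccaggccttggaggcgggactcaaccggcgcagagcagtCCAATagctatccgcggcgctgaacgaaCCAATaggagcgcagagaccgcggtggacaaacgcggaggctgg
Cdt1: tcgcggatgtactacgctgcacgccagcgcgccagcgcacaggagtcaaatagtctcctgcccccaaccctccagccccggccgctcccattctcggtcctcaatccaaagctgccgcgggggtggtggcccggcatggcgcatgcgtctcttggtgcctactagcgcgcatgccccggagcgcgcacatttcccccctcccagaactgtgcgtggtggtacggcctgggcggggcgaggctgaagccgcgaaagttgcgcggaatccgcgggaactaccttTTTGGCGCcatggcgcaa

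In Cdc20 the CHR letters began at position -18 from the start site, between CCAAT boxes at -53 and -8. Plk1 had a CCAAT box at -14 and CHR letters at 30. Mcm5 held 2 overlapping E2F matches at -153 and -149 and 3 CCAAT boxes, and Cdt1 an E2F match at 32. CHR letters were present in 17 of 21 mitosis genes with a window (81.0%), 2 of 12 replication genes (16.7%) and 21.7% of all 27025 genes. E2F letters were present in 1 mitosis gene (4.76%), 6 replication genes (50.0%) and 2.6% of all genes. CCAAT boxes were found in 19 mitosis genes (90.5%), 8 replication genes (66.7%) and 41.1% of all genes, and none of these letters in the 2 G1/S genes with a window, Ccne1 and E2f1. Of the 17 mitosis genes with CHR and CCAAT letters, 11 fell under TGF-β in epithelial libraries, and of the 4 without, 2 fell. Replication genes fell with E2F letters in the window (6 of 6, median log2 fold change -0.69) and without them (6 of 6, median -0.45). A match of letters does not show that a factor binds there.

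Neither EC nor IPFc gave a call among the members in the epithelial fraction. Under EC, no member was called by edgeR (4 at an unadjusted p under 0.05, 1 by DESeq2), where 4.41% of all genes were called. The median log2 fold change of the members was 0.08 against 0.00 over all genes, and 22 of 25 mitosis genes had a positive sign. In all 4 mice 9 of 41 genes were higher, and the share of all genes that did so is not given. The largest changes under EC were those of Kif23 (log2 0.27 ± 0.09, padj = 0.0932) and Aurka (log2 0.25 ± 0.09, padj = 0.146). Mki67 was at 748, 694, 814 and 483 CPM, Top2a at 675, 611, 691 and 616 CPM, Cdk1 at 163, 157, 168 and 211 CPM and Ccnb1 at 238, 206, 249 and 283 CPM. The EC library of mouse 4 was the lowest for Mki67 and the highest for Cdk1 and Ccnb1, so these genes did not deviate together. It was also the highest for Pcna (355, 364, 334 and 548 CPM) and the lowest for Mcm2 (241, 222, 242 and 200.2 CPM) and Cdt1 (106, 122, 115 and 103 CPM). Plk1 was at 175, 148, 167 and 155 CPM, Aurkb at 105, 93.6, 95.6 and 88.0 CPM, Mcm5 at 410.4, 386, 397 and 425 CPM and Rrm2 at 244, 224, 267 and 289.6 CPM, all overlapping with vehicle. Of the G1/S genes, Ccne1 was at 26.6, 29.5, 33.8 and 38.5 CPM, Ccne2 at 20.5, 17.2, 22.0 and 30.6 CPM and E2f1 at 50.6, 54.5, 56.4 and 44.6 CPM under EC.

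Under IPFc, which includes TGF-β, no member was called by edgeR (1 at an unadjusted p under 0.05, 1 by DESeq2), where 4.1% of all genes were called, and the median log2 fold change was 0.00. The lowest padj was that of Tk1, thymidine kinase (log2 -0.24 ± 0.08, padj = 0.123). Mki67 was at 687, 671, 659 and 758 CPM, Top2a at 639, 556, 682 and 693 CPM, Plk1 at 151, 134, 149 and 142 CPM and Ccnb1 at 217, 198, 265 and 265 CPM. Mcm5 was at 400.5, 375, 419.7 and 393 CPM, Pcna at 337, 333, 393 and 375 CPM, Rrm2 at 242, 223, 292 and 303 CPM and Cdt1 at 104, 115, 98.5 and 101 CPM. None of these groups was separate from vehicle. Ccne2, at 16.7, 17.03, 34.1 and 28.8 CPM, was split within the group, with mice 3 and 4 above mice 1 and 2.

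The exposures were also compared with each other. By edgeR, 30 members were higher under EC than under TGF-β in epithelial libraries, beside 20.9% of all genes, and 27 were higher under IPFc than under TGF-β, beside 18.6%. All 13 replication genes passed the test against EC and 12 against IPFc. Cdc20 differed by 1.11 ± 0.09 between EC and TGF-β and by 0.90 ± 0.09 between IPFc and TGF-β on the log2 scale. Fibroblast markers moved with both comparisons, from 5.37 to 15.4% of the partner under EC and 4.91 to 16.0% under IPFc to 25.9 to 31.0% under TGF-β, and after subtraction of their share 19 and 17 members were called. Between EC and IPFc, Kif23 alone was higher under EC (0.33 ± 0.09, padj = 0.0297 by edgeR), beside 1.76% of all genes, and this call was lost without a replicate block.

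**Figure D3:**
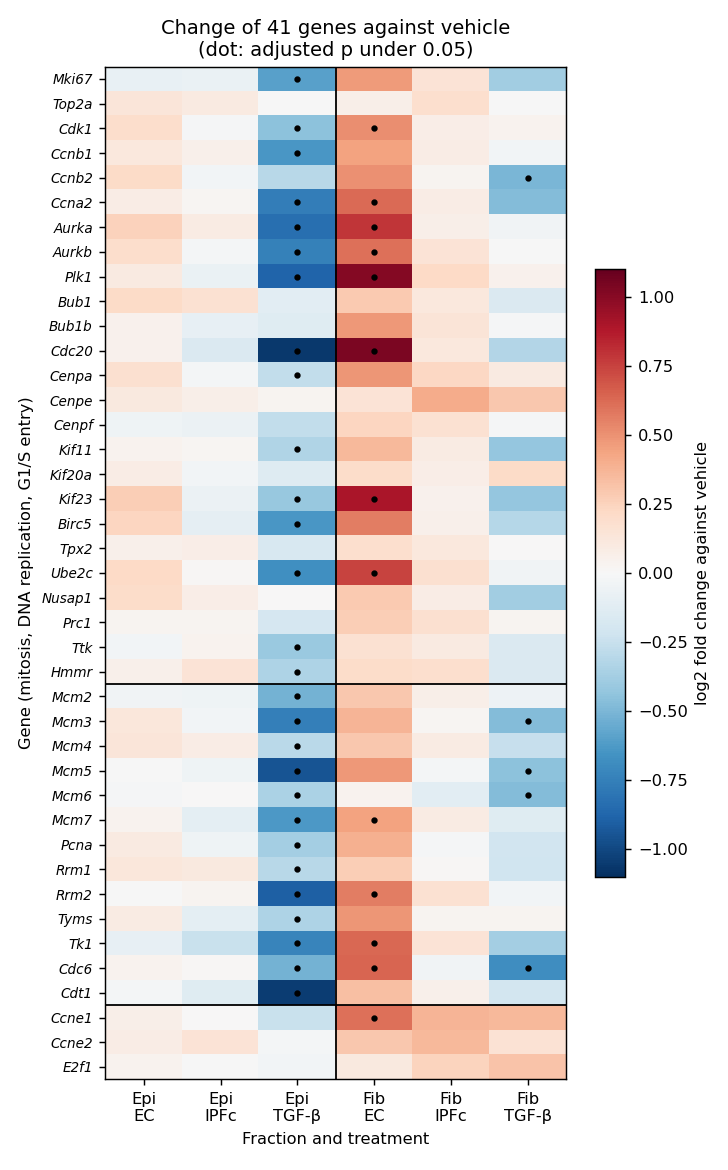
Log2 fold change of each of the 41 genes (rows, grouped as mitosis, DNA replication and G1/S entry) against vehicle in epithelial (Epi) and fibroblast (Fib) libraries under EC, IPFc and TGF-β, with a dot where padj was under 0.05. Calls fill the epithelial TGF-β column (28 lower), 13 genes are higher in the fibroblast EC column and 5 lower in the fibroblast TGF-β column.

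In the growth-arrested fibroblast fraction, EC raised 13 of 41 genes and lowered none, with all 41 signs positive and a median log2 fold change of 0.44 against -0.02 over all genes. They were 8 mitosis genes (Cdc20, Kif23, Plk1, Ube2c, Aurka, Aurkb, Cdk1 and Ccna2), 4 replication genes (Rrm2, Cdc6, Tk1 and Mcm7) and Ccne1. Over all genes, 4.28% rose under EC in this fraction. In 21 members every EC library lay above every vehicle library, beside 6.07% of all genes. In all 3 mice with both cultures 26 members were higher, a count without a share of all genes to set beside it. The median difference of the members from vehicle was 0.22 in mouse 1, 0.38 in mouse 3 and 0.63 in mouse 4. Epithelial markers moved the same way, from 17.6 to 30.8% of the partner under vehicle to 36.9 to 58.2% under EC.

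Cdc20 was at 54.1, 42.0 and 69.3 CPM in fibroblast vehicle libraries and 99.5, 87.6, 99.7 and 144 CPM under EC (log2 fold change 1.04 ± 0.18, padj = 0.00206 by edgeR). Kif23 rose from 56.3, 64.5 and 68.5 to 93.1, 121, 117 and 146 CPM (log2 fold change 0.90 ± 0.15, padj = 0.00182) and Plk1 from 35.8, 28.8 and 41.1 to 58.6, 62.3, 65.1 and 87.0 CPM (log2 fold change 1.01 ± 0.19, padj = 0.00384). The groups were apart in all 3 genes, and the EC library of mouse 4, in which epithelial markers were at 58.2% of the partner, was the highest. The same library was also the highest for Mki67, at 122, 300.4, 317 and 394 CPM under EC, where mouse 1 was below all vehicle libraries (log2 fold change 0.47 ± 0.23, padj = 0.249). Top2a was at 251, 382, 388 and 416 CPM, with mouse 1 again the lowest (log2 fold change 0.06 ± 0.17, padj = 0.869). Cdk1 was at 77.9, 74.1 and 67.6 CPM under vehicle and 121, 97.5, 92.5 and 105 CPM under EC (padj = 0.0308), Aurkb at 37.1, 29.8 and 37.6 and 56.0, 44.0, 48.0 and 59.3 CPM (padj = 0.0163), and Ccnb1 at 89.2, 85.9 and 86.4 and 99.7, 110.1, 122 and 143 CPM (padj = 0.0848).

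Of the replication genes, Rrm2 rose to 139, 137, 125 and 161 CPM (log2 fold change 0.57 ± 0.15, padj = 0.0326 by edgeR), with all EC libraries above vehicle. Mcm5 was at 151, 178, 177 and 239 CPM (padj = 0.0586), Pcna at 264, 198, 199 and 246 CPM (padj = 0.073), Mcm2 at 87.7, 130.3, 140.3 and 159 CPM (padj = 0.23) and Cdt1 at 35.8, 59.7, 62.4 and 81.0 CPM (padj = 0.243). Mouse 1 was the lowest EC library for Mcm2, Mcm5 and Cdt1 and the highest for Pcna. Ccne1 rose from 12.9, 11.1 and 13.8 to 19.6, 20.3, 16.6 and 21.0 CPM (log2 fold change 0.60 ± 0.17, padj = 0.0369). Ccne2 was at 20.6, 12.4, 13.4 and 15.5 CPM and E2f1 at 74.95, 68.8, 85.4 and 71.3 CPM under EC, both overlapping with vehicle.

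The number of calls in this comparison depended on single libraries and mice. It was 4 without the EC library of mouse 4, 23 without that of mouse 1, which had the fewest reads, 4 with no replicate block, 1 without mouse 3, 3 without mouse 4 and 8 without mouse 2, and 3 with a term for the letter R that the titles of some samples carry. With the estimated epithelial share subtracted, no member was called by edgeR, and the median log2 fold change was -0.48. The subtraction took more than was there for 14 genes in the EC library of mouse 1, 13 in that of mouse 4, 1 in that of mouse 2, and 1 and 3 in the vehicle libraries of mice 3 and 4, and their counts were set to 0 for the test. With levels below 0 kept as such, the summed mitosis genes were 529 to 1411 CPM under vehicle and 21.0 to 1005 CPM under EC. Standard errors of the fold changes after subtraction were large, at 1.35 for Cdc20 (0.52 on the log2 scale) and 1.49 for Kif23 (-1.30).

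**Figure D4:**
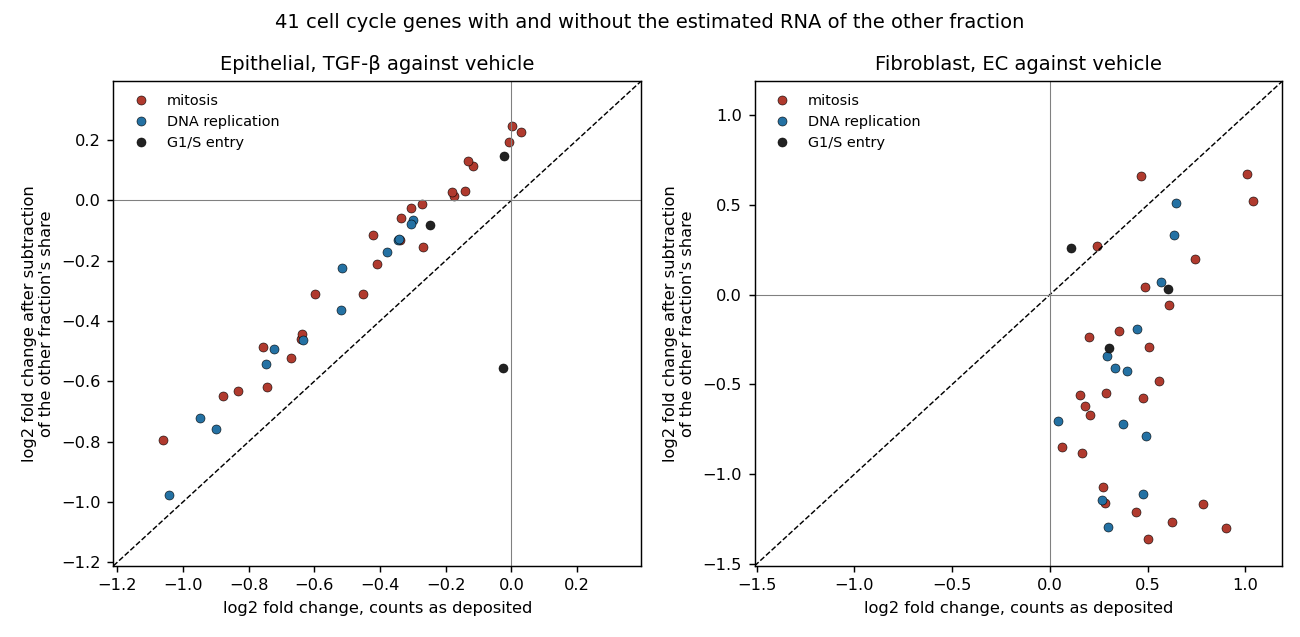
Log2 fold change of the 41 genes from the counts as deposited (x axis) and after subtraction of the estimated RNA of the other fraction (y axis), coloured by list, with a dashed line at equal values. In epithelial libraries under TGF-β (left) 40 of 41 points lie above the line, with Cdc20 at -1.06 and -0.80 and Cdt1 at -1.04 and -0.98, while in fibroblast libraries under EC (right) 30 of 41 points move below 0.

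In the fibroblast fraction under TGF-β, the median log2 fold change of the members was -0.13 against -0.02 over all genes. TGF-β lowered 5 of the 41 members, a share no higher than the 12.8% of all genes that fell. They were the helicase subunits Mcm3 (-0.48 ± 0.12, padj = 0.00783 by edgeR), Mcm6 (-0.48 ± 0.12, padj = 0.0106) and Mcm5 (-0.45 ± 0.14, padj = 0.0349), the loader Cdc6 (-0.68 ± 0.17, padj = 0.00909) and the mitotic cyclin Ccnb2 (-0.50 ± 0.16, padj = 0.0405). Cdc6 was at 29.9, 27.4 and 27.0 CPM under vehicle and 16.8, 16.4, 19.8 and 12.5 CPM under TGF-β. Mcm5 was at 90.8, 85.6, 107 and 84.3 CPM and Mcm3 at 93.5, 92.5, 119 and 99.6 CPM under TGF-β, against 147, 147 and 163 CPM for Mcm3 under vehicle. All 3 genes were lower in every TGF-β than in every vehicle library, as were 13 members in all, beside 18.3% of all genes.

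Most mitosis genes in the fibroblast fraction were not called under TGF-β. Mki67 was at 141, 150.1, 161 and 115 CPM, below vehicle in all 4 libraries (log2 -0.38 ± 0.23, padj = 0.29), and Top2a at 339, 377, 345 and 249.5 CPM (log2 -0.01 ± 0.17). Cdk1 was at 70.4, 78.7, 71.8 and 63.0 CPM, Ccnb1 at 84.2, 85.8, 89.6 and 65.03 CPM, Aurkb at 31.9, 30.1, 37.7 and 28.6 CPM and Plk1 at 31.9, 30.6, 43.4 and 26.0 CPM, all overlapping with vehicle. Mouse 4 was the lowest for each of these 4 genes. Mcm2 was at 88.5, 85.7, 119.8 and 89.3 CPM, Pcna at 139.7, 134, 148 and 144 CPM, Rrm2 at 89.9, 95.8, 98.7 and 68.4 CPM and Cdt1 at 26.5, 36.5, 43.8 and 49.0 CPM. The G1/S genes had positive signs, with Ccne1 at 16.2, 14.5, 17.9 and 13.2 CPM, Ccne2 at 17.3, 13.7, 11.4 and 10.8 CPM and E2f1 at 63.4, 68.3, 107 and 96.5 CPM (padj from 0.163 to 0.584).

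Epithelial markers fell with this comparison, to 0.974 to 3.52% of the partner. After subtraction of the epithelial share no member was called by edgeR and the median log2 fold change was 0.56, with 38 of 41 signs positive, in a comparison that uses the same vehicle libraries with levels below 0. Without mouse 4, 1 member was called in the counts as deposited.

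For IPFc in the fibroblast fraction, no member was called by edgeR (2 at an unadjusted p under 0.05, 0 by DESeq2), where 0.449% of all genes were called and the median log2 fold change of the members was 0.09. Mki67 was at 197, 206, 219 and 249 CPM, Top2a at 429, 389, 375 and 357 CPM, Cdk1 at 78.6, 67.6, 73.0 and 87.1 CPM and Plk1 at 36.2, 30.2, 43.7 and 48.6 CPM under IPFc. Mcm5 was at 121, 116, 139 and 148 CPM, Pcna at 158, 169, 155 and 200.2 CPM, Rrm2 at 96.4, 99.8, 103 and 126 CPM and E2f1 at 69.6, 73.8, 105 and 83.1 CPM. All 8 genes overlapped with vehicle. The 2 genes at an unadjusted p under 0.05, for which every IPFc library lay above vehicle, were the cyclins Ccne1 (log2 0.37 ± 0.17) and Ccne2 (log2 0.36 ± 0.16).

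Between exposures in the fibroblast fraction, 13 members were higher under EC than under IPFc by edgeR, beside 6.28% of all genes, 30 were higher under EC than under TGF-β, beside 19.9%, and 9 were higher under IPFc than under TGF-β, beside 12.1%. The count for EC against IPFc was 5 without a replicate block, 6 in a fit of only these 2 groups, 3 without the EC library of mouse 4 and 3, 7 and 5 without mice 2, 3 and 4. The count for IPFc against TGF-β was 18 in a fit of only these 2 groups, 14 without the EC library of mouse 1, and 14, 4, 3 and 0 without mice 1 to 4. That for EC against TGF-β was 20 without mouse 4 and 34 without mouse 1. Epithelial markers followed the same order, from 0.974 to 3.52% of the partner under TGF-β through 12.6 to 31.6% under IPFc to 36.9 to 58.2% under EC. After subtraction of the epithelial share, 0, 3 and 0 members were called in these comparisons, and the 3 were lower under EC than under TGF-β.

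The cell cycle genes and the epithelial markers were also compared within each fibroblast library, both as a percentage of the epithelial partner. Under TGF-β, the median epithelial marker was at 1.37, 2.85, 0.974 and 3.52% of the partner, while the median cell cycle gene was at 48.3, 47.8, 51.4 and 40.9%, and all 41 genes were above the median marker in each library. The upper quartile of the markers was at 1.64, 6.84, 2.38 and 5.596% and the highest marker at 51.9, 49.8, 55.5 and 69.0%. Under vehicle, the median marker was at 18.9, 17.6 and 30.8% and the median gene at 45.8, 44.5 and 41.9%, with 41, 40 and 38 genes above. Under EC, the median marker was at 38.4, 39.8, 36.9 and 58.2% and the median gene at 46.9, 56.7, 51.4 and 62.4%, with 27, 40, 41 and 28 genes above, and the upper quartile of the markers at 51.9, 54.1, 48.4 and 79.7%. Under IPFc, the median marker was at 12.6, 16.0, 17.5 and 31.6% and the median gene at 44.3, 49.1, 42.7 and 49.8%, with all 41 genes above in every library. The median marker spread over more between libraries than the median gene did, and the gap was widest under TGF-β and narrowest in the EC library of mouse 4. The partner of the TGF-β library of mouse 1 was not analysed here, and that library was set against the mean of the epithelial TGF-β libraries. The part of epithelial RNA in the levels of these genes was not tested.

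**Figure D5:**
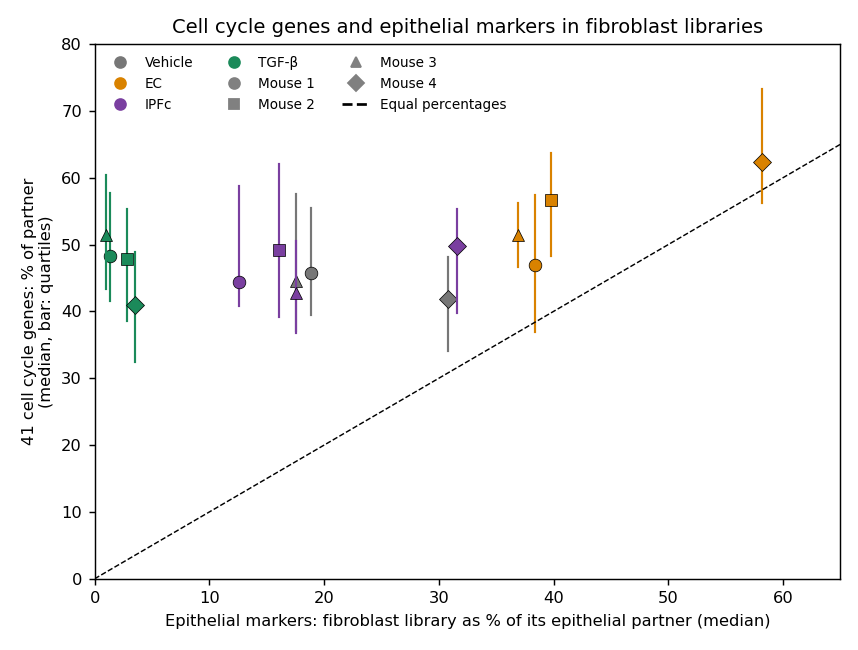
Level of the 41 genes in each fibroblast library as a percentage of its epithelial partner (y axis, median with quartiles) against the same percentage for the median epithelial marker (x axis), coloured by treatment and shaped by mouse. The medians stay between 40.9 and 62.4% while the median markers run from 0.974 to 58.2%, and all points lie above the dashed line of equal percentages.

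Single genes showed how unequal this was. On the scale of library totals without TMM, Top2a in the fibroblast TGF-β libraries was at 57.5, 59.0, 57.2 and 42.4% of the epithelial partner and Mki67 at 29.7, 27.7, 36.5 and 23.2%. Cdc20, Plk1 and Kif23, the 3 genes with the largest log2 fold changes under EC in fibroblast libraries (1.04, 1.01 and 0.90), were also the 3 with the largest differences between the fractions under vehicle (2.28, 2.09 and 1.96). Both comparisons use the fibroblast vehicle libraries.

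Whether the fractions responded unequally was tested as an interaction in a joint fit. For TGF-β, 3 members fell more in epithelial than in fibroblast libraries, Rrm2 (-0.81 ± 0.19, padj = 0.00824 by edgeR), Aurka (-0.72 ± 0.22, padj = 0.036) and Plk1 (-0.83 ± 0.26, padj = 0.0392), beside 2.16% of all genes. The median of the members was -0.22 and that of all genes 0.21, so the members lay below the rest. Aurka was at 31.9, 27.8 and 28.1 CPM in fibroblast vehicle and 29.6, 26.8, 31.0 and 20.2 CPM in fibroblast TGF-β libraries, which overlapped, whereas the epithelial groups did not. The count of calls was 5 without a replicate block, 8 by DESeq2, 6 without the fibroblast EC library of mouse 1, and 0 without mouse 2, without mouse 3 or after subtraction. For EC, no member was called by edgeR (11 at an unadjusted p under 0.05, 2 by DESeq2), where 0.0163% of all genes were called. For IPFc, no member was called by edgeR (0 at an unadjusted p under 0.05, 0 by DESeq2), where 0.0218% of all genes were called.

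Other genes of the cell cycle, from lists drawn up by function, were read beside the members, and those named first had the lowest padj of their list and direction. In epithelial TGF-β libraries, where 20.1% of all genes fell and 21% rose, 28 of 35 other mitosis genes fell and 1 rose (median log2 fold change -0.48), among them Mybl2, the B-Myb factor of mitotic genes (-1.51 ± 0.11, padj = 6.01e-10 by edgeR), and Cdc25b, the phosphatase that activates Cdk1 (-0.91 ± 0.09). The gene that rose was Pttg1, securin (0.92 ± 0.19). Of 34 other replication genes 26 fell and 1 rose (median -0.40), among them the polymerase delta subunits Pold2 (-1.05 ± 0.12) and Pold1 (-0.91 ± 0.09), and the gene that rose was Rpa3, of the single-strand binding complex (0.63 ± 0.19). Among 12 G1 cyclins, kinases and regulators, 5 fell and 2 rose, with E2f2, an activator E2F (-1.96 ± 0.12), and E2f8, a repressor E2F (-0.91 ± 0.13), lower and Myc (0.64 ± 0.13) and cyclin D2, Ccnd2 (0.59 ± 0.13), higher. E2f1 and E2f2 thus had log2 fold changes of -0.03 and -1.96 in the same libraries. After subtraction of the fibroblast share, 15 of the other mitosis and 11 of the other replication genes were lower and 2 of each higher. The 2 mitosis genes were Kif15 (0.39 ± 0.11) and Ndc80 (0.40 ± 0.14), not called in the counts as deposited. Pttg1 was then not called (0.85 ± 0.33, padj = 0.0754 by edgeR). Of the G1 genes 5 were lower and 1 higher, and Ccnd2 was not called (0.33 ± 0.16, padj = 0.137 by edgeR).

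Inhibitors of the cyclin-dependent kinases and pocket proteins changed in both directions, with 4 of 10 higher and 3 lower in epithelial TGF-β libraries. Cdkn2b, the p15 inhibitor known as a TGF-β target, rose by 1.40 ± 0.14 (padj = 7.18e-08 by edgeR) and Cdkn2a by 2.06 ± 0.42 (padj = 0.000503), whereas Cdkn2c (-1.06 ± 0.12) and Cdkn1c (-0.52 ± 0.12) fell. With the fibroblast share subtracted, 2 genes of this list were higher, Cdkn2b and Cdkn2a, and 3 were lower. Cdkn1c was then not called (-0.15 ± 0.12, padj = 0.391 by edgeR), and Cdkn1a was called lower (-0.60 ± 0.17, padj = 0.0171). Of 15 p53 target genes 8 rose and 3 fell, with Gadd45a (2.48 ± 0.12) and Pmaip1 (2.02 ± 0.15) among those that rose, while Aen (-0.43 ± 0.09), Sesn2 (-0.50 ± 0.11) and Bax (-0.53) fell. After subtraction 2 of these p53 target genes were higher and 5 lower.

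In the fibroblast fraction under TGF-β, where 12.8% of all genes fell and 6.39% rose and the epithelial markers fell from 17.6 to 30.8% to 0.974 to 3.52% of the partner, 4 of 35 other mitosis genes fell, a share below that of all genes. They included Pbk (-0.96 ± 0.21). Of 34 other replication genes 7 fell and 1 rose, with the clamp loader subunit Rfc4 (-0.86 ± 0.19) among those that fell and Dut (0.58 ± 0.17) as the gene that rose. E2f2 fell (-1.30 ± 0.21) and Ccnd2 rose (0.53 ± 0.12). Cdkn2b fell by 3.61 on the log2 scale in this fraction (padj = 0.000187 by edgeR), where the epithelial one had a rise, and Cdkn1c fell (-2.02 ± 0.29). Cdkn1a, the p21 inhibitor, rose (0.50 ± 0.14, padj = 0.0142), and 4 of 15 p53 target genes rose and none fell, among them Gadd45a (1.65 ± 0.17). After subtraction of the epithelial share the calls in these lists were 2 p53 target genes that were higher, among them Gadd45a (1.36 ± 0.19, padj = 0.00216), and the values of Cdkn2b (-6.73 ± 2.71) and Cdkn1c (6.58 ± 2.26) were not called.

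Under EC in the fibroblast fraction, where 4.28% of all genes rose and 2.84% fell, 8 other mitosis genes rose and none fell, among them Mybl2 (1.12 ± 0.19, padj = 0.00252 by edgeR) and Melk (0.91 ± 0.18), and 3 other replication genes rose, Cdc45 (0.56 ± 0.13), Fen1 (0.52) and Rfc5 (0.62). E2f2 (0.89 ± 0.20) and Cdkn1c (1.07 ± 0.26) rose and Pmaip1 fell (-0.64 ± 0.15), and none of these genes was called after subtraction. The standard errors were then larger. The sign stayed for Mybl2 (2.82 ± 1.78), Cdc45 (0.14 ± 0.20), E2f2 (0.75 ± 0.73), Cdkn1c (5.41 ± 2.32) and Pmaip1 (-0.52 ± 0.19). It turned for Melk (-0.99 ± 1.39), Fen1 (-0.49 ± 0.27) and Rfc5 (-2.08 ± 1.25). Under EC in the epithelial fraction, where 1.96% of all genes rose and 2.44% fell, the origin subunit Orc1 rose (0.44 ± 0.11, padj = 0.0242 by edgeR) and Btg2 fell (-0.44 ± 0.09), with no other call in these lists. Under IPFc, where 1.53% of all genes fell, the epithelial fraction had lower cyclin D1, Ccnd1 (-0.41 ± 0.07, padj = 0.00212), and Cdkn1c (-0.59 ± 0.10), and the fibroblast fraction had no call in these lists.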

How the data were processed

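The data were 30 bulk RNA-seq libraries of Epcam+ and Epcam- cells re-isolated from organoid cultures. Reads were trimmed by the authors (Trimmomatic 0.30), who deposited, per library, whole-number read counts for 55487 Ensembl genes, not normalised. The aligner and counter are not given in the sources used here, and the genome build is named both as GRCm39 and as GRCm38. For their tests the authors used DESeq2 1.34.0. From the deposited counts, edgeR 4.0.16 in R 4.3.3 was run with TMM factors and the two-sided quasi-likelihood test on genes with a mean count of at least 1. All 4 treatments of a fraction entered a single fit with the mouse as block (18024 epithelial and 18048 fibroblast genes, 8 residual df). Fits of only 2 groups, with fewer residual df, were kept as an alternative. The fractions were compared in a joint fit with the culture as block (18364 genes). Standard errors (±) belong to log2 fold changes unless marked SD. A gene was called where its p, adjusted by Benjamini-Hochberg over all genes tested, was under 0.05. The fits were tested on simulated data.

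Mice pair the cultures by the labels. Deviations from group means correlated by 0.283 on average within a mouse and -0.154 between mice in epithelial libraries, and by 0.305 and -0.155 in fibroblast libraries. Single pairs within a mouse ranged from 0.008 to 0.612 in epithelial and from -0.244 to 0.662 in fibroblast libraries. Each library of a group came from a separate mouse, but the fibroblasts are a single line. The biological coefficient of variation, which sets the precision, was 12.7% in epithelial and 16.9% in fibroblast libraries. No molecular identifiers are described, so depth gives counting error only. Library pairs of a group differed by a chi-square of at least 5.48 per degree of freedom, so none was a repeat.

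To estimate RNA of the other fraction, marker CPM were divided by those of the partner library of the same culture (or of the group mean where the partner is not analysed here), and the median over markers with at least 50 CPM in the partner was taken. For the subtraction, that share of the partner's CPM was removed from each gene's counts, and counts below 0 were set to 0. Shares used library totals without TMM. The members, gene lists, markers and tests were chosen with earlier results of these data known. Genes named with values in every library were 14 anchors picked by function, and in addition the 3 members with the lowest adjusted p per direction and comparison were named, with up to 2 genes per direction in the other lists. Others named singly were chosen after their values were seen, as were the 4 promoters.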

Additional observations from a re-analysis of the deposited data

Results flagged for a closer look

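Of 108 sets of 4 libraries tested for a value far from the other 3, 5 were picked out, where chance gives about 1 in 20. The fibroblast EC library of mouse 4 stood above the other EC libraries in the summed replication genes (2043 CPM, others 1591 to 1650.2) and in the share of epithelial markers (58.2%, others 36.9 to 39.8%). Mcm2 was at 119.8 CPM in the fibroblast TGF-β library of mouse 3, where the others were at 85.7 to 89.3. Ccne2 was at 30.9 CPM in the epithelial vehicle library of mouse 4, where the others were at 18.1 to 18.5. Pcna was at 548 CPM in the epithelial EC library of mouse 4, where the others were at 334 to 364.

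The response to TGF-β differed between the fractions by the interaction test of edgeR for Aurka (log2 -0.72), Plk1 (-0.83) and Rrm2 (-0.81), with the larger fall in the epithelial fraction. Epithelial markers in fibroblast libraries and fibroblast markers in epithelial libraries moved with the same contrast, to 0.974 to 3.52% and to 25.9 to 31.0% of the partner, and none of the 3 genes was called after subtraction.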

How the results depend on the processing

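The fall of replication and mitosis genes in epithelial TGF-β libraries held in every alternative, with 21 to 30 genes called, other than the subtraction of the other fraction's share, which left 15. Counts of calls in the fibroblast fraction were less stable. Subtraction gave 0 for EC against IPFc and 19 and 17 for EC and IPFc against TGF-β in epithelial libraries. In fibroblast libraries it gave 0 for EC, TGF-β, EC against IPFc and IPFc against TGF-β and 3 for EC against TGF-β, turned the sign of 6 of 13 called genes under EC (Cdk1 -0.29, Aurkb -0.056, Kif23 -1.30, Aurka -1.16, Ccna2 -1.27, Mcm7 -0.19) and 3 of 5 under TGF-β (Mcm5 0.36, Cdc6 0.58, Ccnb2 0.05), and gave 19, 21 and 7 between the fractions under vehicle, IPFc and TGF-β and 0 for the TGF-β interaction.

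DESeq2 called 1 gene for epithelial EC and 1 for IPFc, 2 for EC against IPFc, 22 for fibroblast EC, 2 for the EC and 8 for the TGF-β interaction. Without a replicate block the counts were 0 for epithelial EC against IPFc, 4 for fibroblast EC, 5 for fibroblast EC against IPFc and 5 for the TGF-β interaction, and the block changed no other count of calls by over 1.5 times. With the mouse in place of the culture as block the TGF-β interaction had 9 calls. A term for the letter R gave 3 for fibroblast EC, 2 for the EC and 8 for the TGF-β interaction. Testing any gene with a read gave 2 for epithelial EC against IPFc. Fits of only the 2 groups compared gave 0 there, 6 for fibroblast EC against IPFc and 18 for IPFc against TGF-β.

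Library totals in place of TMM gave 6 for fibroblast EC, 9 for fibroblast TGF-β and 1 for the TGF-β interaction. They moved the median of all genes from 0.03 to 0.14 for epithelial TGF-β, from -0.02 to -0.13 for fibroblast TGF-β, from 0.21 to 0.41 for the interaction, from -0.06 to -0.19 and from -0.04 to -0.14 for epithelial EC and IPFc against TGF-β, and from 0.02 to -0.08 between the fractions under vehicle. Of all calls, the part that was higher went from 48.5 to 36.5% (epithelial EC against TGF-β), 49.8 to 38.4% (IPFc against TGF-β), 60.1 to 48.6% (fibroblast EC), 33.4 to 21.9% (fibroblast TGF-β) and 83.9 to 94.7% (TGF-β interaction), and from 3 of 4 to 3 of 3 calls for the IPFc interaction.

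Leaving out each mouse gave 0 to 1 for epithelial EC against IPFc, 1 to 23 for fibroblast EC, 1 to 7 for fibroblast TGF-β, 3 to 15 for fibroblast EC against IPFc, 0 to 14 for IPFc against TGF-β and 0 to 2 for the TGF-β interaction. Chosen after seeing the data, leaving out the fibroblast EC library of mouse 1 gave 23 for EC, 8 for TGF-β, 14 for IPFc against TGF-β, 18 for EC against IPFc and 6 for the TGF-β interaction, and leaving out that of mouse 4 gave 4 for EC and 3 for EC against IPFc. The causes were not tested. The fibroblast EC library of mouse 1 was the shallowest, with 5113828 reads, so its values carry the most counting error.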

Other observations

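The titles of some samples carry the letter R, whose meaning is not given in the sources used here. Among the 12 epithelial libraries of vehicle, EC and IPFc, the 4 without the letter (the 3 of mouse 4 and the IPFc library of mouse 3) lay above all 8 with it in 12 of 41 genes and below them in 1, beside 7.04% and 3.18% of all genes. The gap was clear for Ccne2 (28.8 to 34.1 CPM without, 16.7 to 22.0 with the letter), Mcm6 (333 to 358 and 251 to 297 CPM), Rrm2 (289.6 to 303 and 223 to 267 CPM) and Ccna2 (253 to 279 and 178 to 220.2 CPM), and E2f1 had the reverse order (40.6 to 46.6 and 49.4 to 63.5 CPM). The other genes with separate ranges were Ccnb1, Bub1, Kif11, Prc1, Ttk, Mcm4, Rrm1 and Cdc6. In the fibroblast fraction, with 6 libraries without and 5 with the letter, no member had separate ranges. Mouse 3 had epithelial libraries of both kinds, with Ccne2 at 34.1 CPM in the IPFc library without the letter and at 18.5 and 22.0 CPM in the vehicle and EC libraries with it, and Mcm6 at 333 against 286 and 297 CPM. There the letter cannot be told apart from the treatment, and in epithelial libraries of the other mice it cannot be told apart from the mouse. The letter also differed between the fractions of each vehicle culture with both. The epithelial library carried it in mice 1 and 3, and the fibroblast library in mouse 4. Fibroblast libraries of mouse 3 were mixed too, with the letter on EC, IPFc and TGF-β but not on vehicle. With a term for the letter 27 genes were lower in epithelial TGF-β libraries.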
